A study of Homo sapiens with 3 samples.

Results

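The genes described here are 8 transcription factor genes of the kidney lineage, PAX2, PAX8, LHX1, HNF4A, EMX2, WT1, OSR1 and TFAP2A. They were taken by name from the 57820 genes that both deposited tables list, and each name matched exactly 1 row per table. The cells were of ACHN, an established line from a human renal carcinoma, and overexpressed MEX3A, an RNA-binding protein, fused to Flag. RNA was recovered either with an antibody against the tag (the Flag library) or with IgG, which gives the background of the precipitation. All cells had first been cross-linked with 0.3% formaldehyde and quenched with 0.125 M glycine. Each precipitate is represented by 1 library. Both libraries come from the same overexpressing cells, so the comparison holds the transgene constant and includes no cells without it. The sources used here do not give the promoter of the transgene or say whether the line is 1 clone. An input sample is named in the labels and was not analysed here, so a level in a precipitate combines the amount of an RNA in the cells with its recovery, which cannot be told apart. In the same way, these are bulk RNA libraries in which fewer expressing cells and less RNA per cell cannot be told apart.

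The kidney forms from the intermediate mesoderm under a small set of transcription factors that act in turn. OSR1, a zinc finger protein, marks the mesoderm itself. The paired-box proteins PAX2 and PAX8 and the LIM-homeodomain protein LHX1 then specify the nephric duct and early nephron. EMX2 is a homeodomain protein needed for growth of the urogenital tract, WT1 is a zinc finger protein of nephron progenitors and podocytes, HNF4A is a nuclear receptor of the proximal tubule, and TFAP2A is an AP-2 factor of neural crest and epithelia. PAX8 and PAX2 are widely used to recognise tumours of renal epithelial origin.

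Of the 8 genes, 5 were found in at least 1 library and 3 were listed at 0 in both. PAX2, LHX1 and TFAP2A were higher in the Flag library, by 5.20-fold, 5.51-fold and 23.6-fold on the scale of total counts. By the same rule 28.7% of all genes compared were called enriched, and the median gene had a ratio of 1.93. LHX1 lost its call under another scaling of the libraries, and the TFAP2A ratio (3.99 to 955.9) rests on 1 IgG count. PAX8, by far the most abundant of the 8, had a ratio of 1.5 and OSR1 a ratio of 1.55, and neither was called. Of the 5 genes with reads 0 were depleted. HNF4A, EMX2 and WT1 had no reads in either precipitate.

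Counts summed to 5498124 for Flag and to 3412864 for IgG. A level is given as CPM, the rounded expected count per 1000000 counts of the library, or as the authors' TPM, which also divides by transcript length. A gene entered the comparison with at least 20 counts over both libraries. It was called enriched where the exact 95% Clopper-Pearson interval of its Flag over IgG ratio lay wholly above 2, and depleted where it lay wholly below 0.5. With 1 library per group there is no replicate check and no p-value, and the intervals cover counting error only. All ratios depend on which RNAs fill each library. Mitochondrially encoded genes made up 33.0% of Flag and 8.93% of IgG counts, and the 10 most abundant genes made up 42.8% and 52.8%. In all, 10811 genes entered. The share called enriched was 28.7% and the share called depleted 1.32%. The median gene had a ratio of 1.93, with quartiles of 1.07 and 3.69. A ratio of 1.93 is therefore the usual value in these libraries, and the ratios of the kidney factors are given beside it.

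PAX8, the paired-box gene of kidney and thyroid, had 2532 Flag counts and 1049 IgG counts. This was 460.5 CPM (95% Poisson interval 442.8 to 478.8) and 307.4 CPM (289.0 to 326.5). By TPM, PAX8 stood at 312.1 in the Flag and 222.1 in the IgG library, above 99% and 98.6% of the genes with at least 10 counts there. PAX8 was thus among the most abundant mRNAs in both precipitates, including the one made with IgG. Its ratio of 1.5 (1.39 to 1.61) exceeded 1 beyond counting error but lay wholly below 2 and below the median gene. Of all genes that entered, 39.1% had a lower ratio. Among genes with 1000 or more counts, as PAX8 had, 50.2% were enriched. With TMM scaling, which trims extreme genes before the libraries are set level, the PAX8 ratio turned to 0.874 (0.813 to 0.940), so whether PAX8 lies above or below 1 depends on the scaling.

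Its Flag count was fractional in the deposited table (2531.95), so a small part of the reads was shared with other genes. A noncoding transcript, AC016683.6, was taken as an overlapping partner of PAX8 from background knowledge, since the files give no coordinates. It had 402 Flag and 183 IgG counts, a ratio of 1.36 (1.14 to 1.63). For every 100 PAX8 counts there were 15.9 counts of AC016683.6 in the Flag and 17.4 in the IgG library. The sum of both genes gave a ratio of 1.48 (1.38 to 1.58), close to that of PAX8 alone. The strand setting is not stated, so reads from opposite strands of this locus may have been mixed, which was not tested.

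PAX2, the paralogue of PAX8 that is active in the nephric duct and condensing mesenchyme, had 394 Flag counts and 47 IgG counts. Its level was 71.7 CPM (64.8 to 79.1) with Flag and 13.8 CPM (10.1 to 18.3) with IgG, and the intervals did not overlap. At the Flag level the IgG library would have held 244.6 counts of PAX2. The ratio was 5.20 (3.84 to 7.20), which is 2.70 times the ratio of the median gene and above that of 84.9% of genes. PAX2 was also called enriched with TMM scaling, at 3.03 (2.24 to 4.20), where 12.0% of all genes were enriched and 6.12% depleted. It was the second of the 8 genes by TPM in both libraries, at 24.8 in the Flag and 6.84 in the IgG library.

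LHX1, whose LIM-homeodomain product acts in the nephric duct and the renal vesicle, had 142 Flag counts and 16 IgG counts. These were 25.8 CPM (21.8 to 30.4) against 4.69 CPM (2.68 to 7.61), again without overlap. The ratio of 5.51 (3.28 to 9.90) was above that of 86.0% of genes. Among genes with 100 to under 1000 counts, the range of PAX2 and LHX1, 36.4% were enriched, so a call at this depth is common. With TMM scaling the ratio of LHX1 was 3.21 (1.91 to 5.77) and it was no longer called.

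TFAP2A, which encodes AP-2 alpha, had 38 Flag counts and 1 IgG count. The levels were 6.91 CPM (4.89 to 9.49) and 0.293 CPM (0.00742 to 1.63). At the Flag level 23.6 counts would have been found in the IgG library. The ratio of 23.6 was the highest of the 8 genes and above that of 99.1% of genes, but its interval ran from 3.99 to 955.9, because it rests on a single IgG count. TFAP2A reached the minimum of 20 counts through the Flag library alone, so only a high ratio could have let it enter. Among genes with 20 to under 100 counts, 17.2% were enriched. TMM scaling gave 13.8 (2.32 to 557.3), still called.

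OSR1, the earliest of these factors in kidney formation, had 20 Flag counts and 8 IgG counts, or 3.64 CPM (2.22 to 5.62) and 2.34 CPM (1.01 to 4.62). The intervals of the levels overlapped. The ratio of 1.55 (0.655 to 4.07) did not differ from 1 beyond counting error, and a difference of up to 4.07-fold was not detectable at this depth. With TMM scaling the ratio was 0.905 (0.382 to 2.38).

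HNF4A, EMX2 and WT1 were listed at 0 counts and 0 TPM in both libraries. A count of 0 allows up to 3 counts, which is 0.546 CPM in the Flag library, 0.879 CPM in the IgG library and 0.337 CPM over both. PAX8 in the IgG library lay far above these limits, while TFAP2A there, at 0.293 CPM, lay below the limit. No ratio can be given for the 3 genes. Of 20345 protein-coding genes, 6660 (32.7%) were listed at 0 in both libraries. RNA of HNF4A, EMX2 and WT1 was thus not detected in either precipitate, and whether the cells contain it was not measured here. The antisense genes EMX2OS and WT1-AS, which overlap EMX2 and WT1 in RefSeq (GRCh38.p14, used for neighbourhood only), were at 0 in both libraries as well. So was TFAP2A-AS1, a neighbour of TFAP2A, which itself had reads.

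**Figure D1:**
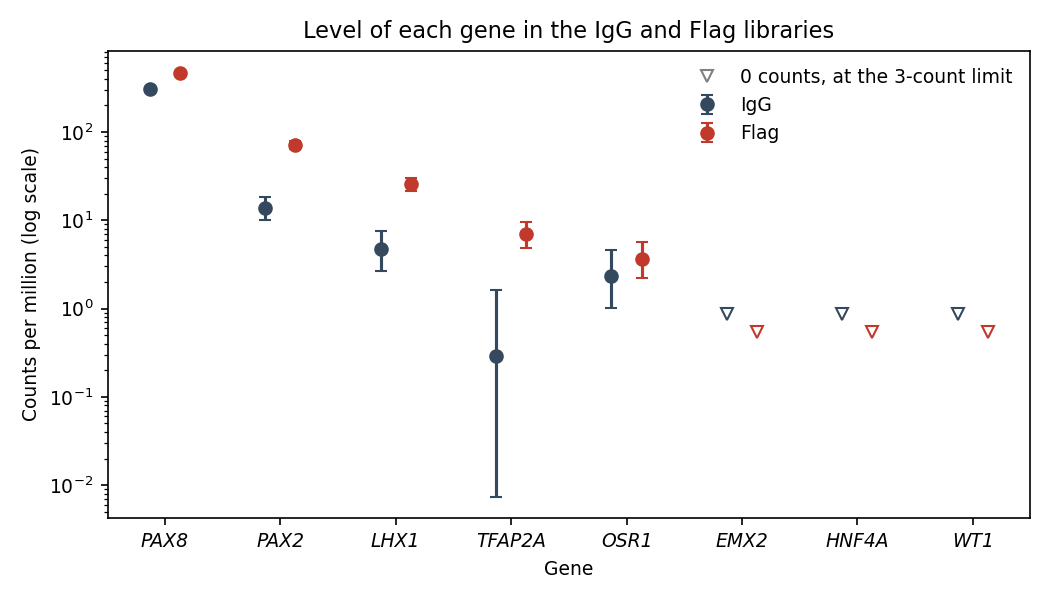
Level of each of the 8 genes in the IgG and Flag libraries, in CPM on a log axis, with exact 95% Poisson intervals that cover counting error only (1 library each). PAX8 is highest in both libraries at 307.4 and 460.5 CPM, and open triangles place EMX2, HNF4A and WT1, with 0 counts, at the 3-count limits of 0.879 and 0.546 CPM.

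By TPM the order in the Flag library was PAX8, PAX2, LHX1, TFAP2A and OSR1, and in the IgG library PAX8, PAX2, OSR1, LHX1 and TFAP2A. PAX8 held 81.0% of all Flag counts of the 8 genes and 93.6% of their IgG counts. PAX2 took 12.6% of the Flag and 4.19% of the IgG counts, and LHX1 4.54% and 1.43%. The lower places were not well separated in level. TFAP2A at 2.81 TPM and OSR1 at 2.26 TPM rested on 38 and 20 Flag counts, and OSR1 at 2.16 TPM and LHX1 at 1.18 TPM on 8 and 16 IgG counts. Together the 8 genes made up 568.6 CPM of the Flag and 328.5 CPM of the IgG library, most of it PAX8.

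**Figure D2:**
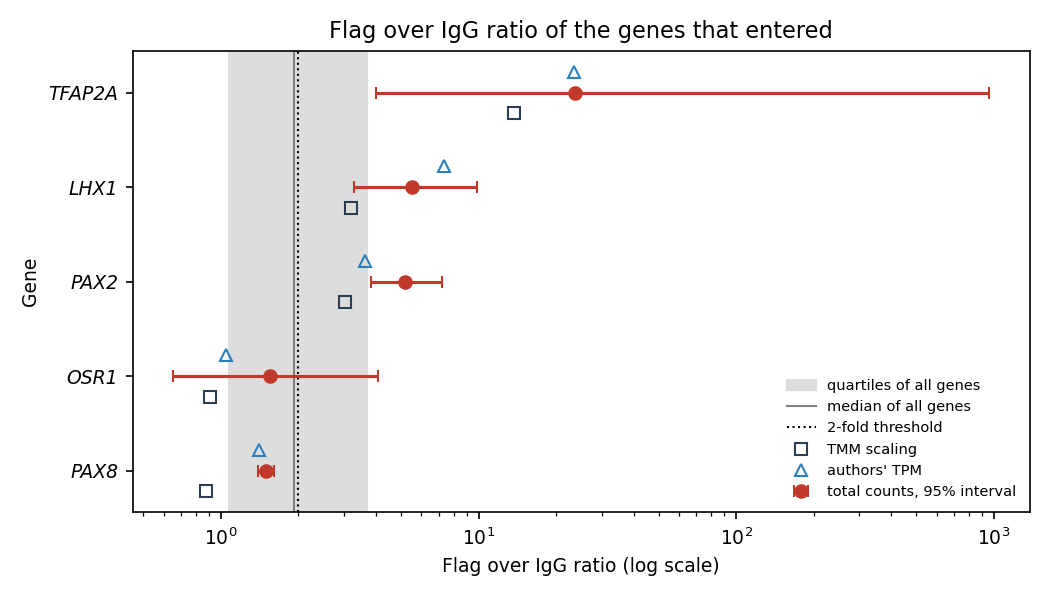
Flag over IgG ratio on a log axis for the 5 genes that entered, with total counts (filled points, exact 95% intervals), TMM scaling (squares) and the authors' TPM (triangles). PAX2 at 5.20, LHX1 at 5.51 and TFAP2A at 23.6 lie above the upper quartile of all genes at 3.69, while PAX8 and OSR1 lie below the median at 1.93.

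Ratios of 1 member to another within each library need no library total, so no scaling of the totals can move them. TPM can, since it divides by a length that differs between the libraries. The 5 genes gave 10 pairs, and 3 differed between the libraries with intervals widened to 99.5% for the number of pairs. For every 100 PAX8 counts there were 15.6 PAX2 counts in the Flag and 4.48 in the IgG library, a 3.47-fold difference (2.24 to 5.62). For LHX1 there were 5.61 and 1.53 counts per 100 of PAX8, a 3.68-fold difference (1.79 to 8.71). TFAP2A was 15.7-fold higher relative to PAX8 (1.73 to 6461), an interval that again reflects its single IgG count. PAX2 and LHX1 therefore each had a higher Flag over IgG ratio than PAX8 beyond counting error, whatever the totals. The pair of TFAP2A is not read in this way, since only a high ratio could have let TFAP2A enter.

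The remaining pairs were not separated at 99.5%. LHX1 relative to PAX2 differed by a factor of 1.06 between the libraries (0.447 to 2.77), which leaves a difference of up to 2.77-fold undetected. OSR1 relative to PAX8 gave 1.04 (0.315 to 4.23). OSR1 relative to PAX2 gave 0.298, with an interval of 0.118 to 0.831 at 95% that reached 1.30 at 99.5%. OSR1 relative to LHX1 gave 0.282 (0.0985 to 0.869 at 95%, reaching 1.39 at 99.5%), and OSR1 relative to TFAP2A gave 0.0658 (0.00145 to 0.569, reaching 1.04). At 95%, 6 of the 10 pairs differed, these 3 among them. TFAP2A did not differ from PAX2 (4.53, 0.464 to 1898) or LHX1 (4.28, 0.376 to 1865) beyond counting error.

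**Figure D3:**
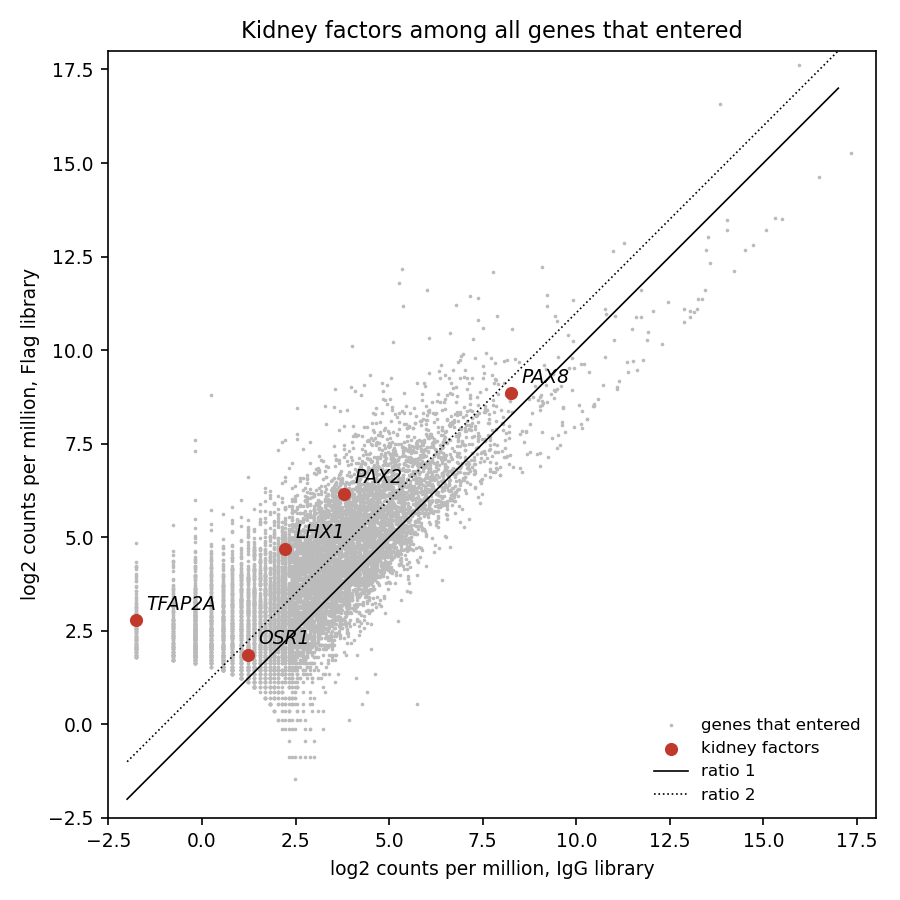
Level of every gene that entered, as log2 CPM in the IgG library (x axis) and the Flag library (y axis), with the 5 kidney factors in red. PAX2, LHX1 and TFAP2A lie above the dotted line of ratio 2, and PAX8 and OSR1 between the lines of ratio 1 and 2. Counts of 0 are placed at the 3-count limit.

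The authors' TPM gave the same members past 2-fold. With a pseudocount of 0.1 the TPM ratio was 3.59 for PAX2, 6.84 for LHX1 and 13.2 for TFAP2A, against 1.41 for PAX8 and 1.04 for OSR1. By this rule 44.2% of all genes lay above 2 and 6.59% below 0.5. PAX2 was lower and LHX1 higher by TPM than by counts, and the effective length that the deposited tables give for a gene differed between the libraries. For PAX2 it was 2859 bases in the Flag and 1991 in the IgG library, a ratio of 1.44. For LHX1 it was 2955 and 3930 bases, a ratio of 0.752, and for OSR1 1594 and 1075 bases, a ratio of 1.48. The count ratio divided by the length ratio was 3.62 for PAX2 and 7.33 for LHX1, against TPM ratios without a pseudocount of 3.63 and 7.34.

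The lengths of PAX8 (1462 and 1368 bases) and TFAP2A (2436 and 2385 bases) differed little. In tables of this kind a gene's effective length is a mean over its transcripts weighted by their estimated abundance, so a shift in length records a shift in the estimated mix of transcripts. PAX2 has 10 transcripts in the files, LHX1 5 and OSR1 4, and their IgG estimates rest on 47, 16 and 8 counts. Shifts of this size were common, since 47.5% of genes with counts in both libraries had a length ratio above 1.2 or below 0.8. Levels of single transcripts were not analysed here.

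The 3 protein-coding genes with whole counts nearest to PAX8 in the log2 CPM of both libraries were PTRF, TLN1 and LASP1, at distances of 0.09, 0.11 and 0.15. PTRF, a gene of caveolae, had 2528 Flag and 1117 IgG counts, a ratio of 1.40 (1.31 to 1.51). TLN1, which encodes the focal adhesion protein talin, had a ratio of 1.35 and LASP1, an actin-binding adaptor gene, of 1.44. With only 2 libraries this likeness describes level and ratio and nothing more.

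Other kidney transcription factors were found in part. Of 53 listed, 19 entered, 9 (47.4%) were enriched and 0 depleted, 19 had 1 to 19 counts, and 15 had none. The share enriched among all genes was 28.7%. It was 17.2% at 20 to under 100 counts, 36.4% at 100 to under 1000 and 50.2% at 1000 or more, and depth was not matched. The median log2 ratio of those that entered was 1.83, against 0.95 for all genes. HOXA11, a homeobox gene of the metanephric mesenchyme, had 306 Flag and 6 IgG counts, a ratio of 31.7 (14.4 to 86.9, with fractional counts). IRX3, a homeobox gene of the intermediate nephron segments, had 34 Flag counts and 0 IgG counts, which makes it at least 7.03-fold higher with the 0 set to 3 counts. Like TFAP2A, IRX3 reached the minimum through the Flag library alone, and with 0 IgG counts this fixed its call on total counts. HOXA10 had a ratio of 4.70 (3.42 to 6.59, with fractional counts). With TMM scaling 2 of the 19 (10.5%) stayed enriched, HOXA11 and IRX3, against 12.0% of all genes.

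Among ligands and receptors of kidney development 18 of 43 entered, with a median log2 ratio of 1.78. Of these, 11 (61.1%) were enriched and 0 depleted, against 28.7% enriched among all genes. Among all genes with 100 to under 1000 counts 36.4% were enriched, and among those with 1000 or more 50.2%. The list was not matched to other genes by depth. FGFRL1, which encodes a receptor-like protein needed for nephron formation, had 732 and 43 counts, a ratio of 10.6 (7.77 to 14.7). BMPR2, which encodes a type II receptor for bone morphogenetic proteins, had a ratio of 6.29 (4.95 to 8.10). RSPO3, which encodes a secreted enhancer of Wnt signalling, had 99 and 7 counts, a ratio of 8.78 (4.11 to 22.4). EGFR, the most abundant of these genes, had a ratio of 4.14 (3.81 to 4.51, with fractional counts). These 4 genes (22.2%) were the ones still enriched with TMM scaling, against 12.0% of all genes.

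Partners and cofactors of the 8 proteins were enriched at a share near that of all genes, 28.7%. Of 28 found, 23 entered, 7 (30.4%) were enriched and 0 depleted, and the median log2 ratio was 0.84. PAWR, which encodes a protein that binds WT1, had 1331 and 151 counts, a ratio of 5.47 (4.62 to 6.52). It was the 1 gene of this list (4.35%) that TMM scaling left enriched, against 12.0% of all genes. The coactivator gene NCOA2 had a ratio of 3.68 (2.44 to 5.76) and RLIM, which encodes a ubiquitin ligase acting on LIM cofactors, of 3.34 (2.42 to 4.70). KMT2D, which encodes a histone methyltransferase brought to PAX2 targets through PAXIP1, was the most abundant, at 2.35 (2.20 to 2.50, with fractional counts). PAXIP1 had a ratio of 1.29 (0.908 to 1.86), and LDB1, the LIM-binding partner of LHX1, of 1.56 (1.18 to 2.09).

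Tubule genes and targets of the 8 factors were mostly listed at 0. Of 39 found, 22 were at 0 in both libraries, 10 had 1 to 19 counts and 7 entered. Of those 7, 0 were called, with a median log2 ratio of 0.96. Over all genes 28.7% were enriched and 1.32% depleted, and 32.7% of protein-coding genes were at 0 in both libraries. PKD1, the polycystin gene, had the most counts, 282 and 168, a ratio of 1.04 (0.858 to 1.27, with fractional counts). LRP2, which encodes the endocytic receptor megalin of the proximal tubule, was at 0 in both, and CUBN, which encodes its partner cubilin, had 3 and 0 counts.

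Family members of the 8 genes were rare. Of 32, 18 were at 0 in both libraries, as were 32.7% of all protein-coding genes. Of the 8 that entered, 2 (25%) were enriched, near the 28.7% of all genes, and 0 depleted. Their median log2 ratio was 1.58. TFAP2C, a paralogue of TFAP2A, had 22 Flag counts and 1 IgG count, a ratio of 13.7 (2.21 to 563.6). It too reached the minimum through the Flag library alone, so with 1 IgG count only a high ratio could have let it enter. RXRA, a nuclear receptor gene, had 428 and 67 counts, a ratio of 3.97 (3.06 to 5.21). Neither stayed enriched with TMM scaling, where 12.0% of all genes were enriched and 6.12% depleted. TFAP4 is counted in this list by its symbol, although it encodes AP-4, which is not an AP-2 factor and not a paralogue of TFAP2A. It had 48 and 59 counts, a ratio of 0.505 (0.338 to 0.752). With TMM scaling, as with median-of-ratios scaling, TFAP4 was called depleted. Of the nuclear receptor genes, NR2F2 had 86 and 17 counts, NR2F6 69 and 29 and NR2F1 5 and 0. EGR1, a zinc finger gene, had 64 and 13, and the LIM-homeodomain gene ISL2 0 and 5. Of the other PAX genes, PAX6 had 47 and 10 counts and PAX5 6 and 0, and the rest were at 0. LHX4 had 18 and 11 counts, OSR2 10 and 1, and TFAP2E 5 and 0. HNF4G, the paralogue of HNF4A, had 19 Flag counts and 0 IgG counts and did not enter.

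**Figure D4:**
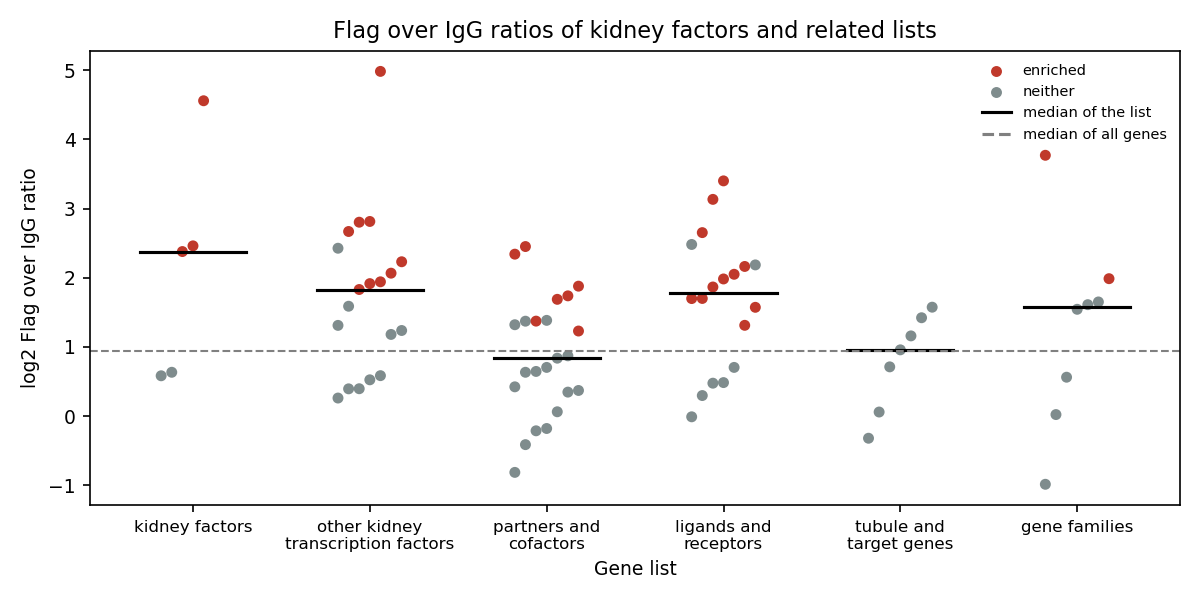
log2 Flag over IgG ratio of each gene that entered, for the kidney factors and 5 related lists, with the median of each list (black line) and of all genes (dashed line, 0.95). Red points are enriched genes: 3 of 5 kidney factors, 9 of 19 other kidney transcription factors and 11 of 18 ligands and receptors. Of the partners 7 of 23 are red, of the family list (which also counts TFAP4) 2 of 8 and of the tubule and target genes 0 of 7, beside 28.7% of all genes. Of the kidney factors, TFAP2A, with 1 IgG count, entered only through its Flag counts.

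The labelled cell type was checked against markers. Of 17 renal epithelial markers 11 entered, among them the keratin genes KRT8, with 765 Flag and 602 IgG counts, and KRT19, with 729 and 525, and VIM, with 2383 and 1557. CA9, CDH6 and LRP2 were at 0 in both libraries. CDH16 had 7 Flag and 0 IgG counts, MME 4 and 0 and CUBN 3 and 0. Of those that entered, CDH1 had only 19 and 8 counts, KRT7 25 and 19 and CA12 33 and 17. The list's summed level was 1204 CPM with Flag and 1038 CPM with IgG, of which VIM alone made up 433.4 and 456.2 CPM. Of the 11 that entered, 27.3% were enriched, near the 28.7% of all genes. The 3 members enriched were CLDN1 (1511 and 196 counts, a ratio of 4.79), EPCAM (214 and 34, 3.91) and CDH2 (385 and 89, 2.69). With TMM scaling CLDN1 stayed enriched and KRT18 (346 and 319, with fractional counts) and HAVCR1 (193 and 176) were called depleted. Over all genes that scaling called 12.0% enriched and 6.12% depleted. The 6 markers of distal nephron and collecting duct and the 5 of liver and gut were all at 0 in both libraries. The 5 endothelial markers found summed to 1.64 CPM in the Flag and 0 in the IgG library. The 6 immune markers summed to 5.46 and 3.81 CPM, all of it CD68. The 5 podocyte markers summed to 155.5 and 106.7 CPM, from SYNPO with 783 and 341 counts and PODXL with 72 and 23, of which 0 were called. NPHS1 was at 0 in both, as was WT1, which podocytes also express. Stromal markers came to 159.9 and 187.2 CPM, nearly all from COL1A1 (875 and 637 counts), while COL1A2, COL3A1, DCN and LUM were at 0.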

How the data were processed

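RNA immunoprecipitates of ACHN cells were sequenced as 1 Flag and 1 IgG library, and the groups follow the antibody label. The authors deposited expected counts (estimated reads per gene, without normalization), which per the file headers have RSEM's gene-level columns. TPM values were deposited by the authors, per the file headers, scaled by effective length. FPKM values were deposited by the authors too and were not used. The submitters' processing notes name STAR and RSEM and the builds hg19 and GRCh37. For annotation release, filters and strand the sources used here give nothing.

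Expected counts were rounded to whole numbers, and the total was 5498124 for Flag and 3412864 for IgG. Ratios and exact intervals used scipy 1.17.1 and were tested on simulated Poisson counts. These hold the counting error that the intervals assume, so the test checks the calculation and not the calls in these libraries. Without molecular identifiers PCR copies count as reads, so intervals and limits cover counting error only. For an IgG count of 0, the ratio with the 0 set to 3 counts is given beside the exact lower bound, and calls used the exact interval. Counts are called whole within 0.01. Alternatives were DESeq2 1.42.0 size factors (median of ratios), TMM by edgeR 4.0.16, totals that leave out mitochondrial genes and the 10 largest genes of each library (reduced totals), other minimums, TPM, 0.5 counts added, protein-coding genes, other thresholds, a 99% interval and whole counts only.

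The 8 genes and the lists were chosen with earlier results of these data known. From each list the text names the called genes if 6 or fewer, otherwise the 3 enriched with the highest lower bound, and the gene with the most counts; family genes with reads and transcripts that overlap a member are named with their counts, and a few others (PAXIP1, LDB1, LRP2, CUBN and the markers) were named after their values were seen. Some genes of the lists are counted but not reported here by name. JAG1, AQP1 and PAGR1, each on more than 1 row, were left out, and GRG4, PECAM1, HNF4A-AS1, LHX1-DT, OSR1-AS1, PAX2-AS1 and PAX8-AS1 matched no row by name.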

Additional observations from a re-analysis of the deposited data

How the results depend on the processing

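With 1 library per group no library could be left out, and no paired analysis was possible because each group has a single library. TMM and median-of-ratios scaling lowered every log2 ratio by 0.78 and 0.79. They left PAX2 and TFAP2A enriched, ended the call of LHX1 (3.21 and 3.19), and turned PAX8 (0.874 and 0.866) and OSR1 (0.905 and 0.897) below 1, neither called. Over all genes they gave 1293 and 1269 enriched and 662 and 675 depleted, and the enriched share of all calls was 66.1% and 65.3%, compared with 95.6% in the main result. They left 2 other kidney transcription factors enriched, as did a 4-fold threshold. Over the 5 members the median log2 ratio came to 1.60 and 1.59 under these scalings, 2.05 with reduced totals, 1.72 and 1.84 with TPM at pseudocounts of 1 and 0.1, and 2.78 with protein-coding genes only. At 4-fold 0 members were called, with PAX2 at 5.20, LHX1 at 5.51 and TFAP2A at 23.6, and 924 genes were enriched and 24 depleted. Depleted genes numbered 268 with reduced totals, 218 with no minimum, 536 and 712 with TPM at 1 and 0.1, 75 with protein-coding genes only and 298 at 1.5-fold, and TPM at 0.1 put 4780 genes above 2. The settings that change scale, minimum, unit or threshold change these counts by construction. PAX2 was enriched under 13 of 14 alternatives, LHX1 under 11 of 14 and TFAP2A under 12 of the 13 in which it entered, and PAX8 and OSR1 under none of 13 each. Several alternatives could not have ended a call of PAX2, LHX1 or TFAP2A, since they leave its ratio and interval unchanged. These are no minimum, a 1.5-fold threshold, whole counts only, the sum of PAX8 and AC016683.6 and, for PAX2 and LHX1, a minimum of 100 counts. The tallies therefore overstate how far the calls were tested. Whole counts only left PAX8 out, and a minimum of 100 counts left out OSR1 and TFAP2A. The sum of PAX8 and AC016683.6 was added after seeing the data. Depth limits TFAP2A and OSR1 most, with 1 and 8 IgG counts.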

Other observations

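Several kidney regulators fell below the minimum of 20 counts and so took no part in the comparison. The following were singled out after their values were seen, as those with reads mostly in 1 library. GDNF, which encodes the ligand that starts ureteric bud growth, and HOXC11 each had 14 Flag counts and 0 IgG counts, at least 2.90-fold higher with the 0 set to 3 counts. POU3F3, a gene of the distal nephron, had 12 and 0, a ratio of 2.48 set in this way and an exact lower bound of 1.72. HNF4G had 19 and 0, a ratio of 3.93 and a lower bound of 2.90.

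Reads of a few others lay mostly in the IgG library, although it was the smaller library. SALL4, a zinc finger gene of stem cells, had 1 Flag and 9 IgG counts, a ratio of 0.0690 (0.00157 to 0.498). SALL1, a zinc finger gene of nephron progenitors, had 5 and 9 counts, a ratio of 0.345 (0.0908 to 1.15). FGF8, which encodes a growth factor of the early nephron, had 0 and 5 counts. SLC3A1, which encodes a subunit of the cystine transporter, had 0 and 7 counts, and its deposited counts were fractional. These counts are too low to order the genes among themselves.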
